A study of Mus musculus with 6 samples.

Results

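The 8 transcripts described here belong to red blood cells and their precursors: the alpha globins Hba-a1 and Hba-a2, the beta globins Hbb-bs and Hbb-bt, the heme enzyme Alas2, the anion exchanger Slc4a1, the tetraspanin Tspan33 and the membrane protein Ermap. They were taken by gene symbol from a table of 15458 rows, and all 8 had a row that passed the filter on low counts. They were chosen by gene symbol with their KC_Epo and KC_EV counts in these libraries already known, so their differences between the groups are given as a description, without a test. The libraries hold polyA RNA of Kupffer cells, the macrophages that line the liver sinusoids, sorted from the livers of C57BL/6 mice on day 18 after Hepa1-6 cells, a mouse hepatoma line, had been implanted. The KC_Epo group (3 libraries) came from mice whose tumour cells overexpressed erythropoietin (EpoOE). The KC_EV group (3 libraries) came from mice whose tumour cells carried the empty vector (EV). Both groups thus bore tumours, and the labels give all mice as wild type. Sort markers, sex and age of the mice, and whether each tumour line was a single clone, were not stated in the labels.

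Hemoglobin is a tetramer of alpha and beta chains, each holding a heme, and its messages are the most abundant ones of late erythroblasts and reticulocytes, the young red cells that have lost their nucleus but still carry RNA. Erythropoietin keeps erythroid precursors alive and so raises the output of reticulocytes. Kupffer cells and splenic macrophages engulf old and damaged red cells, and macrophages also stand at the centre of the islands in which erythroblasts mature. Adult C57BL/6 mice have a pair of alpha genes and, in the haplotype called single, the beta genes Hbb-bs and Hbb-bt.

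Each globin pair is nearly a repeat of itself, which limits what its separate rows can say. The open reading frames of Hba-a1 and Hba-a2 in GENCODE vM21 are 429 bases long and differ at 1 base, and those of Hbb-bs and Hbb-bt are 444 bases long and also differ at 1 base. The stretches below show that base in capitals, from bases 322 to 381 of the alpha and bases 358 to 417 of the beta reading frame, all on coding exons of chromosome 11 (alpha) or chromosome 7 (beta).
Hba-a1: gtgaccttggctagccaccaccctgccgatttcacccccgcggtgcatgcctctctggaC
Hba-a2: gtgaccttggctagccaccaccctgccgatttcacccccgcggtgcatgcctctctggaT
Hbb-bs: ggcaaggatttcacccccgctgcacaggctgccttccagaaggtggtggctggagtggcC
Hbb-bt: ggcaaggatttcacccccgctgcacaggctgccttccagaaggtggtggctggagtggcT
Of all 100-base stretches of the Hba-a1 transcript, 56.5% also occurred in Hba-a2, and of those of Hbb-bs, 62.6% also occurred in Hbb-bt. Reads from such stretches could be assigned to either copy or dropped, depending on counting options that the labels do not state. Values of single globin genes are therefore uncertain, and the sums over the 4 rows are given beside them.

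Promoters are shown for globins of both chains and for Alas2, whose messages were higher together in KC_Epo, and for Tspan33, which was lower. Windows of 250 bases before to 50 bases after the start were found for 7 of the 8 members (RefSeq, GRCm38.p6), all but Slc4a1. The 220 bases before the start are printed for Hba-a1 (chr11:32283452-32283671, plus strand), Hbb-bs (chr7:103827929-103828148, minus strand), Hbb-bt (chr7:103813924-103814143, minus strand), Alas2 (chrX:150547197-150547416, plus strand) and Tspan33 (chr6:29693994-29694213, plus strand). Capitals mark 4 motifs on either strand: GATAA, the core of the site of GATA factors, CACCC, which KLF factors bind, CCAAT, and TATAA, the TATA box. A motif on the opposite strand appears as its reverse complement.
Hba-a1: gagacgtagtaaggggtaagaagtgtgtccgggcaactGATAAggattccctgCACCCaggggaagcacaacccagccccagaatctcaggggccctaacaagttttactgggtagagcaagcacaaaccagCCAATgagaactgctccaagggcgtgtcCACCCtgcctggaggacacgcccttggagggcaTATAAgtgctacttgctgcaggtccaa
Hbb-bs: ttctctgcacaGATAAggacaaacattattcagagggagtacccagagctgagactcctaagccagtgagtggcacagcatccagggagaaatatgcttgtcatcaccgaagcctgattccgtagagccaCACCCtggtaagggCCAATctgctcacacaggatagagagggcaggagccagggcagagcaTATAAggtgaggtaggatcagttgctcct
Hbb-bt: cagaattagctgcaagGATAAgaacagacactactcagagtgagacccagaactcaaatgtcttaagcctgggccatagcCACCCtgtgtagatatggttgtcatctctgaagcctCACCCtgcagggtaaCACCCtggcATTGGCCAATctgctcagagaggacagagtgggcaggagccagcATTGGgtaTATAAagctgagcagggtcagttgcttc
Alas2: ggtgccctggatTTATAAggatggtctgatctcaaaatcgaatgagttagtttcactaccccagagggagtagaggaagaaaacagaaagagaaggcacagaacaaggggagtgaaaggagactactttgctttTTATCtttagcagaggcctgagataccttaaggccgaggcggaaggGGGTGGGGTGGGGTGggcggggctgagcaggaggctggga
Tspan33: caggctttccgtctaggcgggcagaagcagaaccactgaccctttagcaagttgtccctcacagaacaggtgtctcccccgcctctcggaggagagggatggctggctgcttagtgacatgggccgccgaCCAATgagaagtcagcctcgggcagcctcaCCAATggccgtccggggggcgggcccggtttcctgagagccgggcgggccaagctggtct
Read along the gene's own strand, all 4 globin windows held GATAA first, then CACCC, then CCAAT and last a TATAA that ended 23 to 26 bases before the start; the alpha windows had a further CACCC between CCAAT and TATAA. The Hba-a2 window was the same as the Hba-a1 window at all 297 bases they share when shifted by 3 bases, so it is not printed, whereas Hbb-bs and Hbb-bt matched at 168 of 299 bases. The window of Alas2, on the X chromosome, held GATAA in reverse, 3 copies of CACCC in reverse and no CCAAT, and its TATAA matches on the opposite strands overlap at 1 place, 208 to 203 bases before the start. The window of Tspan33 held CCAAT alone. Windows with all 4 motifs were found for 5 of the 7 members, the 4 globins and Ermap, and for 1.51% of all 32851 windows. Singly, GATAA was in 25.4%, CACCC in 57.5%, CCAAT in 37.4% and TATAA in 24.9% of all windows.

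Depth ran from 23201076 to 33280754 counts per library. Epo itself had 29, 44 and 21 counts in KC_Epo 1 to 3 and 0 counts in each KC_EV library, at least 36.1-fold higher when KC_EV is set to a floor of 3 counts in all, in the direction of the labels. All 10 Kupffer cell markers were detected, and their summed level was 41716 to 45300 CPM in KC_Epo and 25697 to 28078 CPM in KC_EV (CPM, counts scaled by library total and TMM factor). Clec4f, Cd5l and Marco had the most counts of them. By the edgeR test 8 of the 10 were higher in KC_Epo and 1 was lower. The lower one was Adgre1, at 719 to 954 CPM in KC_Epo and 1271 to 1527 CPM in KC_EV (log2 fold change -0.72). Across all genes, 32.3% of 13120 passed the edgeR test, 16.9% higher and 15.4% lower in KC_Epo. Higher calls made up 52.4% of these. That share was 40.6% when upper-quartile factors replaced TMM and 24.8% when CPM used raw library totals, where the overall log2 median was -0.16.

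Globin messages were a small share of every library and about 23-fold more abundant in KC_Epo. The 4 globins together took 33243, 18098 and 17096 counts in KC_Epo 1 to 3, against 988, 1258 and 1153 counts in KC_EV 1 to 3. As a share of all counts this was 0.102%, 0.0544% and 0.0737% in KC_Epo, against 0.00327%, 0.00429% and 0.00358% in KC_EV. Every KC_Epo library thus stood far above every KC_EV library, and KC_EV was not free of globin messages. The summed level averaged 809.9 ± 244 CPM in KC_Epo and 35.1 ± 4.64 CPM in KC_EV (SD, n = 3 each), a 23.1-fold ratio of means. Within KC_Epo the highest library, KC_Epo 1, had 1.83 times the level of the lowest, KC_Epo 2, and within KC_EV the corresponding ratio was 1.29. In bulk RNA, more red cells in or on the sorted cells and more of these messages per cell cannot be told apart.

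The alpha chains pair with the beta chains in hemoglobin. Hba-a1 stood at 306.2, 166.7 and 209.8 CPM in KC_Epo 1 to 3, against 8.92, 10.6 and 10.1 CPM in KC_EV 1 to 3. Its groups did not overlap, and its fitted log2 fold change was 4.53 ± 0.29 (SE). Hba-a2 stood at 125.7, 63.7 and 99.9 CPM in KC_Epo, against 5.58, 6.01 and 4.46 CPM in KC_EV. It had the smallest value of the 4 globins, 4.17 ± 0.33, or an 18.0-fold ratio of means.

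Of the beta chains, Hbb-bs had the most counts of all 8 members, with 574.0, 319.0 and 418.1 CPM in KC_Epo and 15.0, 20.7 and 18.2 CPM in KC_EV. Its log2 fold change was 4.61 ± 0.30. Hbb-bt, its minor partner, stood at 62.3, 32.9 and 51.4 CPM in KC_Epo, against 1.67, 2.94 and 1.33 CPM in KC_EV, with a log2 fold change of 4.63 ± 0.42. Between these copies the levels thus differed, while the fold changes lay within each other's SE.

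**Figure D1:**
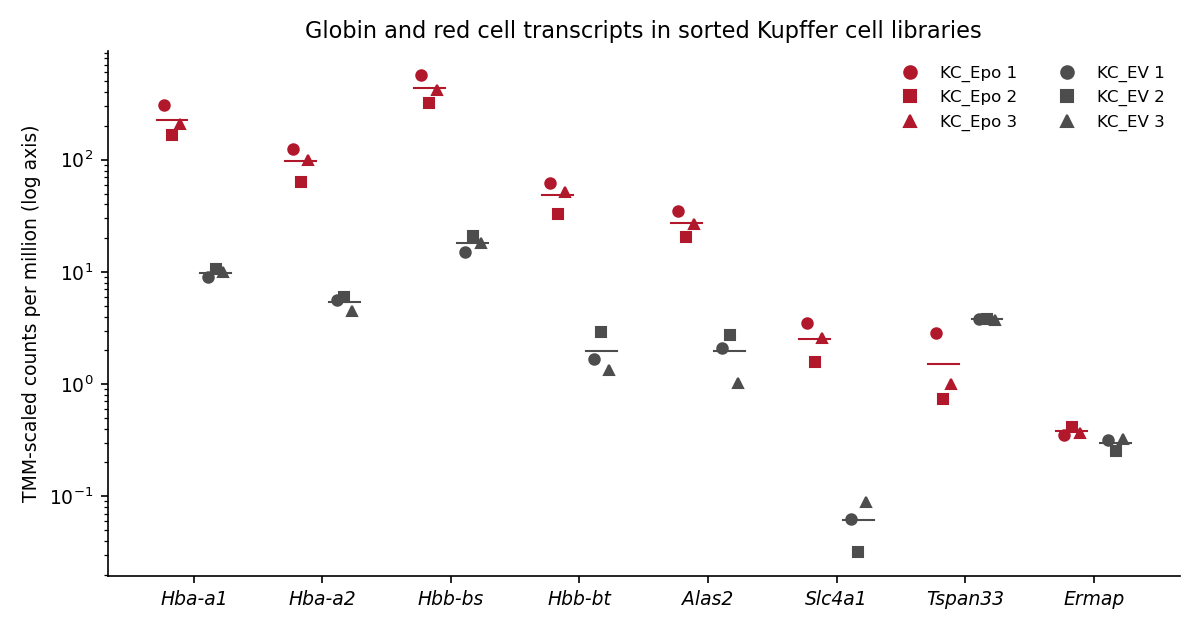
TMM-scaled CPM (log axis) of the 8 members in each library, KC_Epo in red and KC_EV in grey, with replicates 1 to 3 as circles, squares and triangles and group means as lines. Hba-a1, Hba-a2, Hbb-bs, Hbb-bt, Alas2 and Slc4a1 were far higher in all 3 KC_Epo libraries, Tspan33 was lower in all 3, and Ermap lay close together in the groups.

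Alas2 encodes the erythroid form of the first enzyme of heme synthesis, and Slc4a1 encodes band 3, the anion exchanger that is also the main membrane anchor of the red cell skeleton. Alas2 stood at 34.6, 20.6 and 26.8 CPM in KC_Epo 1 to 3, against 2.11, 2.75 and 1.03 CPM in KC_EV 1 to 3. The groups did not overlap, with a 13.9-fold ratio of means and a log2 fold change of 3.80 ± 0.38. Slc4a1 had 109, 49 and 56 counts in KC_Epo and 2, 1 and 3 counts in KC_EV, or 3.50, 1.58 and 2.55 CPM in KC_Epo against 0.0631, 0.0320 and 0.0885 CPM in KC_EV. Its log2 fold change of 5.27 ± 0.59 was the highest of the 8, and it rests on 6 counts in KC_EV: with a larger prior count of 2 it was 4.35.

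Tspan33, a tetraspanin of erythroblasts that B cells and other leukocytes also make, went the other way. It had 88, 23 and 22 counts in KC_Epo 1 to 3 and 121, 120 and 126 counts in KC_EV 1 to 3, or 2.83, 0.74 and 1.00 CPM in KC_Epo against 3.81, 3.84 and 3.72 CPM in KC_EV. The KC_EV libraries were nearly level, while KC_Epo 1 had 3.82 times the level of KC_Epo 2. The log2 fold change was -1.30 ± 0.44, and with each library left out in turn it ranged from -2.12 without KC_Epo 1 to -0.95 without KC_Epo 2. Of the 8 B cell markers, 1 was higher (Cd22, 0.28) and 1 lower (Fcrla, -0.63), and their summed level was 181 to 269 CPM in KC_Epo and 242 to 269 CPM in KC_EV. Within KC_Epo, Tspan33 was highest in KC_Epo 1, where the B cell sum was lowest. Sums of sinusoidal endothelial and of stem and early progenitor markers were highest there, at 3207 and 71.9 CPM. Both of these sums were, like Tspan33, lower in KC_Epo than in KC_EV. The part of other cells in the Tspan33 values was not tested.

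Ermap, which carries the Scianna blood group in humans, was at the edge of detection, with 11, 13 and 8 counts in KC_Epo and 10, 8 and 11 counts in KC_EV. Its CPM of 0.353, 0.418 and 0.365 in KC_Epo and 0.315, 0.256 and 0.325 in KC_EV did not overlap, but by library size alone they did. The log2 fold change was 0.34 ± 0.59, so the SE exceeded the value.

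Of the 8 members, 7 were higher in every KC_Epo library than in every KC_EV library and 1 was lower, where 24.1% and 24.2% of all genes tested did so, or 48.3% in either direction. These values chose the members, and the count is no evidence about them. With each library left out in turn, the log2 fold changes ranged over 4.26 to 4.72 for Hba-a1, 3.94 to 4.41 for Hba-a2, 4.36 to 4.80 for Hbb-bs, 4.41 to 5.03 for Hbb-bt, 3.49 to 4.13 for Alas2 and 4.97 to 5.62 for Slc4a1. Ordered by fold change among the 13120 genes, Slc4a1 was at place 11, the globins at places 19 to 26 and Alas2 at place 30 from the top.

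Per kilobase of transcript, the 4 globins and Alas2 stood in the same order in both groups. Hbb-bs led with 695.9 ± 205 CPM per kilobase in KC_Epo and 28.6 ± 4.58 in KC_EV, followed by Hba-a1 with 325.6 ± 102 in KC_Epo and 14.1 ± 1.20 in KC_EV (SD, n = 3 each). Hba-a2 came next at 174 ± 56.2 CPM per kilobase in KC_Epo and 9.65 ± 1.45 in KC_EV. Hbb-bt followed at 69.5 ± 21.2 in KC_Epo and 2.82 ± 1.21 in KC_EV, and Alas2 at 13.4 ± 3.43 in KC_Epo and 0.965 ± 0.426 in KC_EV. In KC_Epo neighbours in that order lay more than 1 SD apart, but the globin pairs share sequence. The other members took different places in the groups. In KC_Epo, Tspan33 at 0.764 ± 0.570 and Slc4a1 at 0.560 ± 0.212 CPM per kilobase did not differ beyond their spread, and Ermap was last at 0.0832 ± 0.00762. In KC_EV, Tspan33 at 1.90 ± 0.0317 stood above Alas2, and Slc4a1, at 0.0135 ± 0.00623, stood below Ermap, at 0.0656 ± 0.00820.

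The make-up of the globin counts differed far less than their amount. Beta chains gave 59.6%, 60.4% and 60.3% of globin counts in KC_Epo 1 to 3, with exact binomial intervals that lay within 59.0% to 61.1%. In KC_EV 1 to 3 they gave 53.4% (50.3% to 56.6%), 58.8% (56.0% to 61.6%) and 57.3% (54.4% to 60.2%). The values of KC_EV 2 and KC_EV 3 thus had intervals that overlapped those of KC_Epo, although no KC_EV library reached the KC_Epo values, and KC_EV 1 lay lowest. Intervals cover counting error only, since no molecular identifiers are named in the labels. As a ratio of counts, beta over alpha averaged 1.51 ± 0.0286 in KC_Epo and 1.31 ± 0.144 in KC_EV (SD, n = 3 each).

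Within the pairs the shares overlapped between the groups. Hba-a2 held 29.1%, 27.6% and 32.3% of alpha counts in KC_Epo 1 to 3, against 38.5%, 36.3% and 30.7% in KC_EV 1 to 3. Hbb-bt held 9.79%, 9.34% and 10.9% of beta counts in KC_Epo, against 10.04%, 12.4% and 6.81% in KC_EV. The KC_EV libraries spread more widely, on 460 to 518 alpha and 528 to 740 beta counts each.

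**Figure D2:**
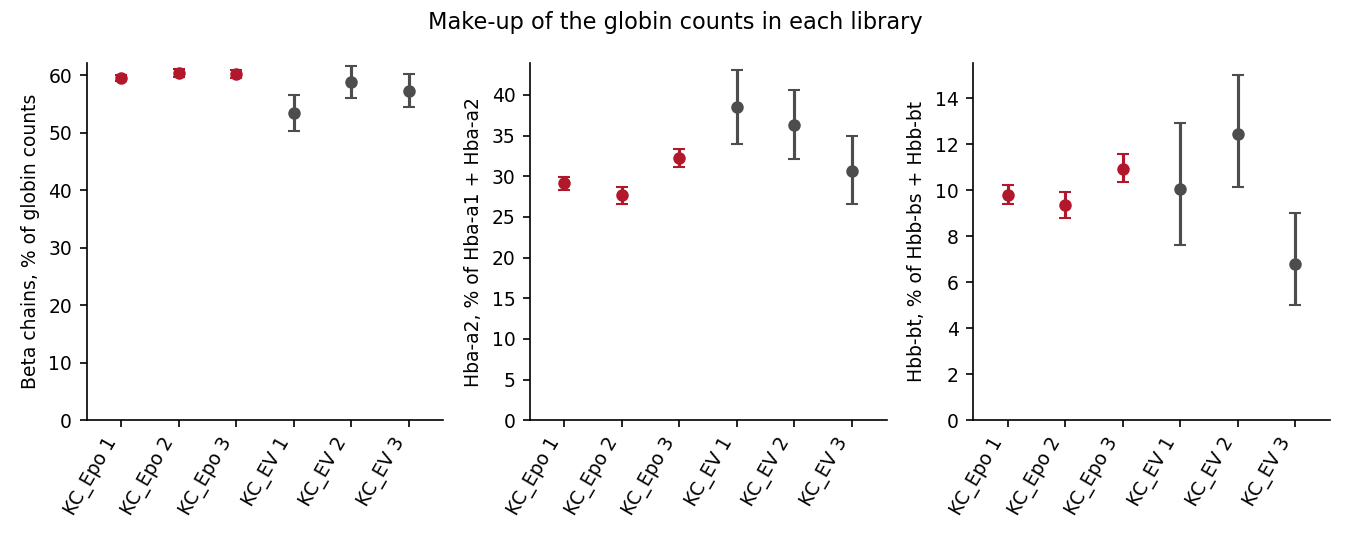
Shares of globin counts in each library, with KC_Epo in red and KC_EV in grey: beta chains among all 4 globins, Hba-a2 among the alpha chains and Hbb-bt among the beta chains, all in percent with exact 95% binomial intervals from counting. The beta shares of the KC_Epo libraries lie close together. For Hba-a2 and for Hbb-bt the interval of KC_Epo 3 lies above those of KC_Epo 1 and KC_Epo 2. Intervals are wide in KC_EV, where 988 to 1258 globin counts stand behind each library.

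Set against the globins, the other members split. Alas2 had 32.4, 35.4 and 34.4 counts per 1000 globin counts in KC_Epo 1 to 3, against 67.8, 68.4 and 30.4 in KC_EV 1 to 3. The KC_Epo libraries were level although their globin amounts differed 1.83-fold, and the value of KC_EV 3 lay just below theirs. Slc4a1 had 3.28, 2.71 and 3.28 counts per 1000 globin counts in KC_Epo, against 2.02, 0.795 and 2.60 in KC_EV, where the exact intervals, 0.0201 to 7.60 in all, cover the KC_Epo values. Tspan33 had 2.65, 1.27 and 1.29 in KC_Epo, against 122, 95.4 and 109 in KC_EV, and Ermap had 0.331, 0.718 and 0.468 in KC_Epo, against 10.1, 6.36 and 9.54 in KC_EV. Thus Tspan33 and Ermap did not keep a fixed ratio to the globins in these libraries.

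The 3 KC_Epo libraries ranked alike for the 6 members that were much higher. Relative to KC_Epo 1, KC_Epo 2 had 0.544 of its Hba-a1 level, 0.507 of Hba-a2, 0.556 of Hbb-bs, 0.528 of Hbb-bt, 0.596 of Alas2 and 0.45 of Slc4a1. KC_Epo 3 had 0.685 to 0.824 of the KC_Epo 1 level for these 6. Tspan33, although lower in KC_Epo than in KC_EV, had the same order, with 0.262 in KC_Epo 2 and 0.355 in KC_Epo 3. Hepatocyte markers ranked in the same order, with 0.297 in KC_Epo 2 and 0.604 in KC_Epo 3, and their summed level was 25294, 7523 and 15268 CPM in KC_Epo 1 to 3, against 3225 to 4036 CPM in KC_EV. Of the 20 hepatocyte markers 14 were higher and none was at 0 throughout. Of the 6 that did not pass, Pck1, Tat, Ass1 and Cps1 had negative log2 fold changes, -0.75 to -0.42. Alb, which encodes albumin, made up the largest part of the sum, at 14665, 3996 and 8589 CPM in KC_Epo, against 1753 to 2129 CPM in KC_EV. The order was not particular to them: sums of stem and early progenitor (0.506 and 0.659), sinusoidal endothelial (0.744 and 0.836), neutrophil (0.817 and 0.884) and platelet (0.884 and 0.886) markers had it as well, and B cell and Kupffer cell sums did not. Summed Kupffer cell markers hardly varied, at 1.09 in KC_Epo 2 and 1.02 in KC_Epo 3 relative to KC_Epo 1. With 3 libraries the order is a description, and the part of these other cells in the globin values was not tested. Without KC_Epo 1 the summed globins were still higher, by 4.28 on the log2 scale, against 4.53 with all libraries.

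**Figure D3:**
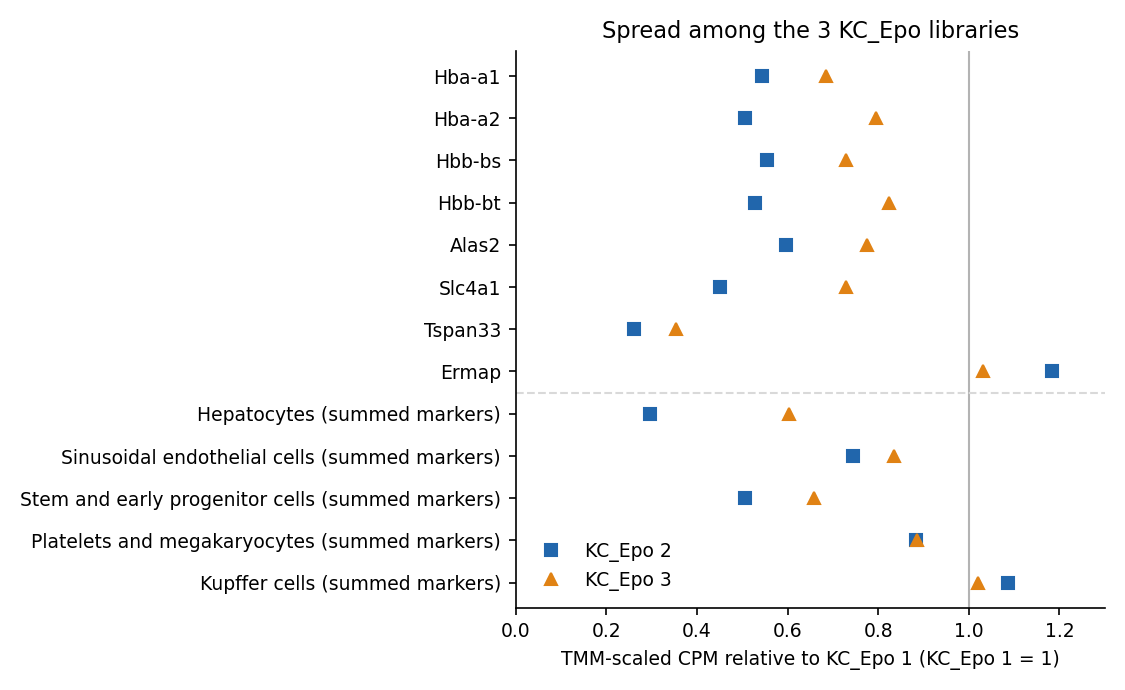
Level of each member and of summed cell type markers in KC_Epo 2 (squares) and KC_Epo 3 (triangles) relative to KC_Epo 1, in TMM-scaled CPM, with the line at 1 marking KC_Epo 1. The 4 globins, Alas2 and Slc4a1 fall to 0.45 to 0.596 in KC_Epo 2, Tspan33 to 0.262, and Ermap and the Kupffer cell markers stay near 1.

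Markers of other blood cells differed less than the globins. Of 9 platelet and megakaryocyte markers tested, 3 were higher and 0 lower, where 16.9% of all genes were higher. Higher were Gp1bb at 2.72, Gp9 at 1.59 and Pf4 at 0.61 on the log2 scale (edgeR adjusted p = 0.0136, 0.0256 and 0.000661). Treml1 at 1.61 and Itga2b at 0.39 did not pass. Nor did Gp6 at -1.52, Gp1ba at -0.57, Tubb1 at -0.25 and Ppbp at -0.06. The summed level of the listed platelet markers was 55.5 to 62.8 CPM in KC_Epo and 39.7 to 41.6 CPM in KC_EV. Pf4 gave the largest part, at 33.5 to 39.5 CPM in KC_Epo and 22.3 to 24.5 CPM in KC_EV. Of 8 stem and early progenitor markers tested, 6 were lower, and the sum was 36.3 to 71.9 CPM in KC_Epo and 113 to 139 CPM in KC_EV. Among them Kit, the receptor of early erythroid and mast cell precursors, stood at 42.1, 18.9 and 25.4 CPM in KC_Epo, against 64.5 to 74.7 CPM in KC_EV. Sinusoidal endothelial sums were lower as well, at 2387 to 3207 CPM in KC_Epo and 4866 to 5693 CPM in KC_EV. The part of endothelial cells in the progenitor values was not tested. Summed neutrophil markers overlapped, at 271 to 332 CPM in KC_Epo and 254 to 503 CPM in KC_EV. Csf3r gave the largest part, at 242 to 300 CPM in KC_Epo and 243 to 260 CPM in KC_EV. Other markers were uneven in KC_EV 1 to 3: Ngp stood at 0.694, 44.1 and 89.5 CPM and S100a9 at 2.24, 34.7 and 68.2 CPM. In KC_Epo they stood at 4.92 to 6.68 and 8.84 to 10.7 CPM, and neither passed the edgeR test.

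The wider erythroid programme was then read from lists of genes outside the 8. These lists too were chosen with earlier results known, so their calls describe these libraries and are no independent support. Over 4 lists, 56 genes were tested, of which 10 were higher, 7 lower and 39 not called, which is 17.9% and 12.5%, against 16.9% and 15.4% of all genes. As a group these genes thus gave shares close to those of the whole table, although single members, some of them named below, differed.

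Among 22 red cell membrane and skeleton genes, 16 were tested, of which 2 were higher (12.5%, against 16.9% of all genes) and 4 lower (25%, against 15.4%), and the list had a log2 median of 0.05. By DESeq2 4 were higher. Among the higher ones was Ank1, the ankyrin that ties band 3 to the skeleton, at 1.20 ± 0.39 (edgeR adjusted p = 0.0348). Its call was lost without KC_Epo 1, KC_Epo 3, KC_EV 2 or KC_EV 3, where the adjusted p reached 0.121. The lower ones were Ackr1, the Duffy antigen, at -1.83 ± 0.31, Cd24a at -1.31 ± 0.12, Gypc, glycophorin C, at -1.15 ± 0.24 and Kcnn4, a calcium-gated potassium channel, at -1.04 ± 0.23. Ackr1 is also made by venous endothelium, and Cd24a by B cells and epithelium. Sinusoidal endothelial markers were lower in 11 of 14 cases and higher in 1, with sums of 2387 to 3207 CPM in KC_Epo and 4866 to 5693 CPM in KC_EV, none of the 14 was at 0 throughout, and their part in these values was not tested. Sptb, a skeleton protein gene, at 0.91 ± 0.61 and Epb41, protein 4.1, at 0.21 ± 0.08 did not pass (edgeR adjusted p = 0.281 and 0.0542).

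The 6 red cell membrane genes under the filter were too low to test, and 4 of them had at most 1 count in all of KC_EV. Epb42, which encodes a band 3 binding protein, had 6, 8 and 7 counts in KC_Epo and 0 in each KC_EV library, at least 8.06-fold higher against the floor. Tspo2, an erythroid relative of the cholesterol-binding translocator protein, had 24, 5 and 10 counts in KC_Epo, against 0, 1 and 0 in KC_EV. Kel, the Kell antigen, had 9, 0 and 4 counts in KC_Epo and none in KC_EV, and Rhag, of the Rh complex, had 2, 5 and 1 counts in KC_Epo and none in KC_EV. Kel overlapped between the groups through its 0 counts in KC_Epo 2, and Rhd and Add2 overlapped as well. Rhd, also of the Rh complex, had 4, 2 and 1 counts in KC_Epo, against 1, 0 and 2 in KC_EV. Add2, an adducin of the membrane skeleton, had 1, 1 and 2 counts in KC_Epo, against 14, 1 and 2 in KC_EV. Of the 3 late erythroblast genes under the filter, Car1, a carbonic anhydrase, overlapped, with 6, 0 and 2 counts in KC_Epo, against 1, 0 and 1 in KC_EV. The other 2 did not overlap: Trim10 had 33, 10 and 16 counts in KC_Epo, against 4, 1 and 1 in KC_EV, and Hemgn, a nuclear protein of hematopoietic cells, had 14, 5 and 3 counts in KC_Epo, against 2, 0 and 1 in KC_EV. Hbq1b, a theta globin, had 4, 3 and 3 counts in KC_Epo, against 1, 0 and 0 in KC_EV. The embryonic globins and Ahsp, the alpha chain chaperone, were not analysed here.

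Erythroid transcription factors gave no call in the direction of the globins, and 3 of them lay under the filter. Gata1 had 9, 2 and 2 counts in KC_Epo, against 2, 3 and 0 in KC_EV, and Klf1, the activator of the adult beta globin gene, had 1, 3 and 7 counts in KC_Epo, against 6, 0 and 7 in KC_EV. Gfi1b, a repressor of erythroid and megakaryocytic cells, had 18, 1 and 14 counts in KC_Epo, against 4, 2 and 0 in KC_EV, a 6.57-fold ratio of mean CPM. All 3 overlapped between the groups and were not tested. Of 10 factors tested by edgeR, 0 were higher (0 at an unadjusted p under 0.05, 0 by DESeq2 and 0 by limma-voom) and 2 lower (20%, against 15.4% of all genes); their median was -0.63 on the log2 scale, against -0.0045 for all genes. DESeq2 and limma-voom each called 3 lower, and upper-quartile factors or library sizes only gave 5. The lower ones by edgeR with TMM were Tal1 at -1.52 ± 0.23 and Gata2 at -1.34 ± 0.24, which act in stem cells and early progenitors and, both of them, in endothelium. Nfe2, which drives globin and platelet genes, was at -0.69 ± 0.25 and missed the threshold (edgeR adjusted p = 0.0566), but passed without KC_Epo 1 (edgeR adjusted p = 0.0365) or KC_EV 1 (edgeR adjusted p = 0.0341). Myb, a factor of early erythroid precursors, spread widely, at 0.977, 5.50 and 12.2 CPM in KC_EV 1 to 3. It did not pass at -1.83 ± 0.95 (edgeR adjusted p = 0.216). It passed without KC_EV 1, at -2.34 (edgeR adjusted p = 0.00449). The neutrophil markers Ngp and S100a9 had the same order in KC_EV, and the part of such cells in the Myb values was not tested.

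Genes of heme synthesis other than Alas2 moved little. Of 14 tested by edgeR, 4 were higher (28.6%, against 16.9% of all genes) and 0 lower (1 at an unadjusted p under 0.05, 0 by DESeq2), and the list had a median of 0.05. The higher ones were the mitochondrial carriers Slc25a38, which serves glycine import, at 0.39 ± 0.13 and Slc25a39, which serves glutathione import, at 0.32 ± 0.10, ferrochelatase (Fech), which inserts the iron, at 0.29 ± 0.09, and Tmem14c, which serves porphyrin transport, at 0.26 ± 0.07. With upper-quartile factors or library sizes only 0 of the 14 were higher, and 1 and 2 were lower, as the whole table shifted. Without KC_Epo 3 or without KC_EV 2 the count of higher genes was likewise 0, and without KC_EV 1 or without KC_EV 3 it was 2. Alas1, the form of the first enzyme found in all cells, was at 38.4, 48.0 and 43.5 CPM in KC_Epo, against 43.8, 47.3 and 52.5 CPM in KC_EV, and did not pass (-0.14 ± 0.10, edgeR adjusted p = 0.292). Alas2 and Alas1 thus differed in their values, 3.80 and -0.14, although a difference between the genes was not tested.

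Of 16 late erythroblast and reticulocyte genes tested, 4 were higher (25%, against 16.9% of all genes) and 1 lower (6.25%, against 15.4%), and the log2 median was 0.11. The higher ones included Bpgm, which makes the compound that lowers the oxygen affinity of hemoglobin, at 0.49 ± 0.16, Ube2o, a ubiquitin enzyme that clears ribosomes from reticulocytes, at 0.48 ± 0.12, and Bnip3l, which serves the removal of mitochondria, at 0.21 ± 0.07. Gmpr, a purine enzyme, was lower at -0.93 ± 0.21. With library sizes only 1 gene was higher and 3 were lower, and without KC_Epo 3 the higher ones numbered 2. Macrophages express many of these genes too: Bnip3l stood at 84.0 to 93.1 CPM in KC_Epo and 74.9 to 78.2 CPM in KC_EV.

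**Figure D4:**
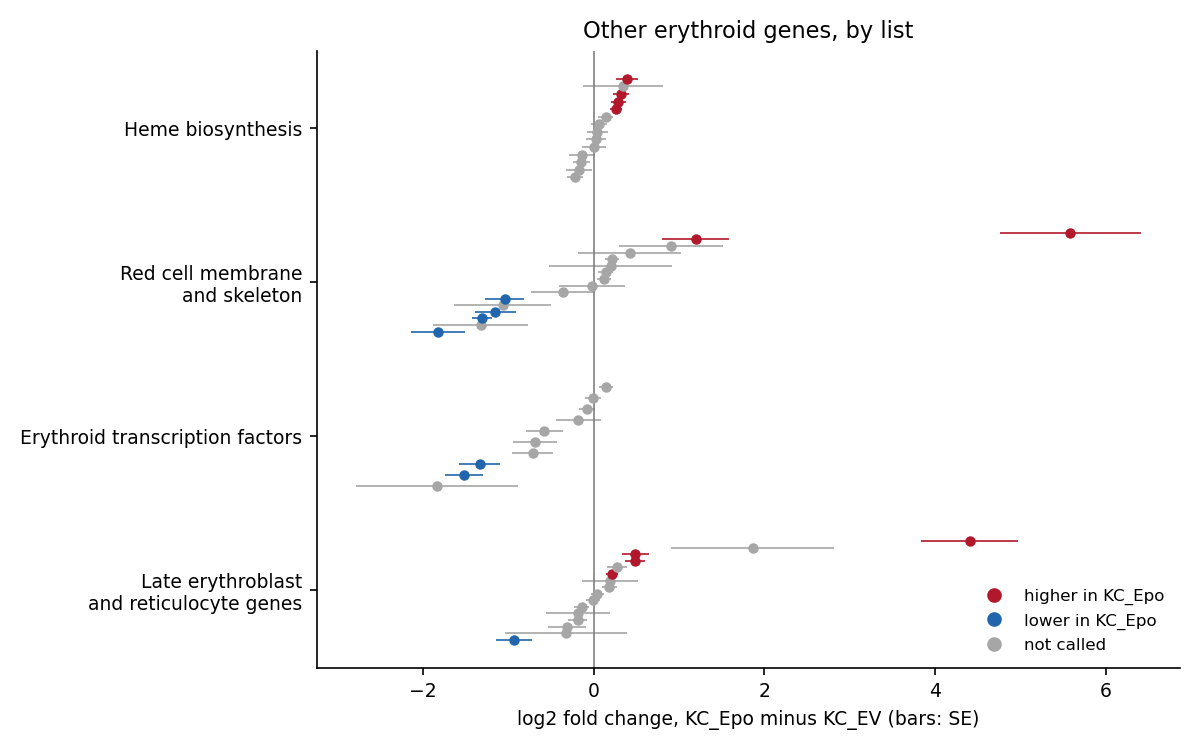
Fitted log2 fold changes (KC_Epo minus KC_EV) of the 56 tested erythroid genes outside the 8 members, by list, with bars of 1 SE, red for those that passed as higher, blue for those that passed as lower and grey for the rest. Most genes lie near 0, a few lie far to the right, and transcription factors reach below 0.

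Genes whose pattern over the 6 libraries was most like the mean globin pattern were found by root mean square distance of log2 CPM centred on KC_EV, among 12248 genes at 1 CPM or more in the higher group. The nearest 10 included Ctsj (0.27), Cyp2c40 (0.40), Cyp2b9 (0.49), Epo (0.52), Hsd17b6 (0.54), Saa2 (0.54), Hist1h1d (0.56), Cyp2c37 (0.59) and Orm2 (0.60). For comparison, Slc4a1 was at 0.35 and Alas2 at 0.54, and the 4 globins at 0.12 to 0.26 from their own mean. The distance rewards a like size of difference, so it names strongly raised genes of any kind, and the Cyp, Saa2 and Orm2 messages are made by hepatocytes. With a prior count of 0.5 instead of 2, 5 of the 10 were the same, and among those lost, Ctsj, Cyp2c40, Cyp2b9 and Epo had 0 to 2 counts in each KC_EV library.

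A handful of genes that act on erythropoietin, iron or heme, picked singly with earlier results known and not as a list, were also read. Epor, the erythropoietin receptor, was at 1.18 ± 0.14 on the log2 scale, Tfrc, the transferrin receptor of iron uptake, at 1.02 ± 0.09 and Cd163, which takes up hemoglobin bound to haptoglobin, at 1.11 ± 0.08. Hmox1, which opens the heme ring, stood at 4621, 5100 and 4773 CPM in KC_Epo, against 1327, 1241 and 1320 CPM in KC_EV, and Slc48a1, the lysosomal heme exporter, at 368, 458 and 423 CPM in KC_Epo, against 144, 141 and 137 CPM in KC_EV (edgeR adjusted p = 3.69e-08 and 2.59e-07). In KC_Epo, Hmox1 and Slc48a1 were highest in KC_Epo 2, the library lowest in globins.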

How the data were processed

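Whole-number read counts per gene symbol were used as deposited, not normalized; per the labels' protocols, a TruSeq stranded mRNA kit was used for the libraries. Per the submitters' processing notes, HTSeq 0.11.2, STAR 2.7.3a, Bowtie2 2.5.1 and FastQC 0.11.8 were used with build GRCm39, in roles not stated. The table had 15458 rows, and no row held fewer than 5 counts. Where a symbol had 2 rows (12 symbols), its larger row was used.

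Tests used edgeR 4.0.16 under R 4.3.3 (TMM, filterByExpr, robust quasi-likelihood fit, two-sided F test, Benjamini-Hochberg adjustment over 13120 genes, threshold 0.05). SEs come from the F statistic. Nothing in the labels besides the mouse number shows separate animals, so p-values reflect only library-to-library spread, which may be technical. Library pairs of a group were not duplicates (chi-square of 6.15 or more a gene). Alternatives were other size factors and filters, DESeq2 1.42.0, limma-voom (limma 3.58.1), a non-robust fit, a prior count of 2, a replicate block and each library left out. The procedure was also run on simulated counts with the same dispersion for every gene. That run does not show how it performs at the uneven spread of these libraries.

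Members, lists and tests were chosen with earlier results of these data known. The p-values of listed and of singly picked genes are therefore descriptive. Named genes are the members, called and chosen genes of the erythroid lists, the leading markers and the 10 nearest patterns. Epo, Epor, Tfrc, Hmox1, Cd163 and Slc48a1 were named in every case. Pf4, Gp1bb, Gp9, Treml1, Itga2b, Gp6, Gp1ba, Tubb1 and Ppbp were named after their values were seen. So were Cd22, Fcrla, Adgre1, Pck1, Tat, Ass1 and Cps1. Some genes in the lists were left out of the text but stay in the counts and the plot of lists. Transcript lengths are from GENCODE vM21 and promoters from RefSeq, on another build than the authors' GRCm39, and the motif search used 5-base letters. The floor was 3 counts over a group, and intervals were exact at 95%.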

Additional observations from a re-analysis of the deposited data

How the results depend on the processing

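The 8 members kept their direction in each alternative that gave them a value and with each library left out, except that Ermap had no value under a filter of 1 CPM in 3 libraries; only Slc4a1 moved beyond its spread between libraries, to 4.35 with a prior count of 2. The ratio of summed globins was 4.37 on the log2 scale with library sizes only and 4.28 to 4.73 with a library left out. The list counts were less steady, and beside the scaling and depth given here the cause was not tested. With upper-quartile factors, heme synthesis genes numbered 0 higher and 1 lower, late erythroblast genes 2 higher and transcription factors 5 lower. With library sizes only, the whole table gave 1193 higher and 3616 lower, heme synthesis 0 and 2, late erythroblast genes 1 and 3, membrane genes 1 higher and transcription factors 5 lower. With no filter or with DESeq2, 4 membrane genes were higher. With a library left out, the whole table gave 1477 to 2410 higher and 1251 to 2147 lower, the lowest of each without KC_Epo 3. Heme synthesis then gave 0 to 3 higher and 0 to 1 lower, membrane genes 1 to 3 higher, late erythroblast genes 2 to 5 higher, and transcription factors 0 to 1 higher and 2 to 4 lower. The pattern search kept 5 of 10 genes with a prior count of 0.5.

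The mouse numbers are shared between the groups, but same-numbered libraries did not deviate together (correlations of -0.11, -0.15 and -0.04), and no KC_Epo library correlated best with the KC_EV library of its own number. A replicate block gave 1800 higher and 1558 lower genes in the whole table, 2 higher heme synthesis genes and 2 higher late erythroblast genes. Members under about 20 counts per library, such as Ermap and the KC_EV values of Slc4a1, are limited by depth.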
